A study of Rattus norvegicus with 18 samples.

Results

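These 151 genes, of 30562 in the count table, were far above the median library in the same 2 of 18 rat intestine libraries, control 2 and irradiated 4. They were selected on their measured levels: both libraries had to reach 10 CPM (the count scaled to a common library total) and 32 times the median over all 18, with 0.1 CPM as the lowest median used. Of 210 genes that passed in both (0.687% of all genes), 17 also passed in irradiated 1 and were left out. A further 42 lay in 3 windows on chromosomes 4, 6 and 11 and were left out too. Because these levels chose the genes, the heights in control 2 and irradiated 4 are given as a description, with no test.

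RNA of wild type Sprague-Dawley rats, an outbred stock, was measured by bulk RNA sequencing of poly(A) RNA, in 3 groups of 6 libraries. Control rats were untreated, irradiated rats were given a dose of 10 Gy X-rays, and irradiated plus formula rats were given that dose and then Changbing Formula, an intervention that the labels name without its ingredients. All samples carry the same batch label. No segment of the intestine is named, and age, sex and the time between exposure and collection are not given in the labels. They do not state that each library is a separate animal, so the p-values below measure the spread between these libraries. The free-text description reads as untreated for every sample, against the titles and treatment fields of the irradiated groups, and groups were taken from the titles.

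The wall of the intestine is made of an absorbing epithelium, connective tissue with immune cells and lymphoid follicles, muscle layers and nerves, and a bulk library mixes the RNA of whatever a piece contains. In such samples fewer cells of a type and less RNA per cell cannot be told apart. In the rat the immunoglobulin loci, from which B cells and plasma cells make antibody, are on chromosome 4 (kappa light chain), chromosome 6 (heavy chain) and chromosome 11 (lambda light chain). Each holds an array of short variable genes, commonly of 2 exons. The table names genes by Ensembl ID without symbols, so what the 151 genes encode is not reported here, and members are given by their position on mRatBN7.2.

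Library totals lay between 33598572 and 48398184 counts. Mitochondrially encoded RNA made up 5.77% of irradiated 4 and 9.30% of control 2, the lowest shares of the 18 libraries, where the highest was 39.7%. The median over all genes that reached 10 CPM anywhere was 32.3 in irradiated 4, 32.2 in control 2 and 19.5 to 30.1 in the other libraries. The part of the mitochondrial share in the members' height was not tested, and scaling without the mitochondrial chromosome left 124 of the 151 genes within the rule.

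The members together took 2.88% of all counts in irradiated 4 and 1.84% in control 2. The next were irradiated plus formula 4, with 0.620%, and irradiated 3, with 0.475%. In the remaining 14 libraries the share lay between 0.0158% and 0.0754%. The median member stood at 88.1 CPM in irradiated 4, 58.4 CPM in control 2, 20.3 CPM in irradiated plus formula 4 and 14.6 CPM in irradiated 3. Control 5, at 2.12 CPM, and control 6, at 1.87 CPM, came next, and the other 12 libraries lay between 0.31 and 0.87 CPM. Each group of 6 thus held at least 1 library in which the members were high, and the groups overlapped over nearly their whole range. Irradiated 1, the third library used by the rule, had a median member of 0.59 CPM, inside the range of the low libraries.

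**Figure D1:**
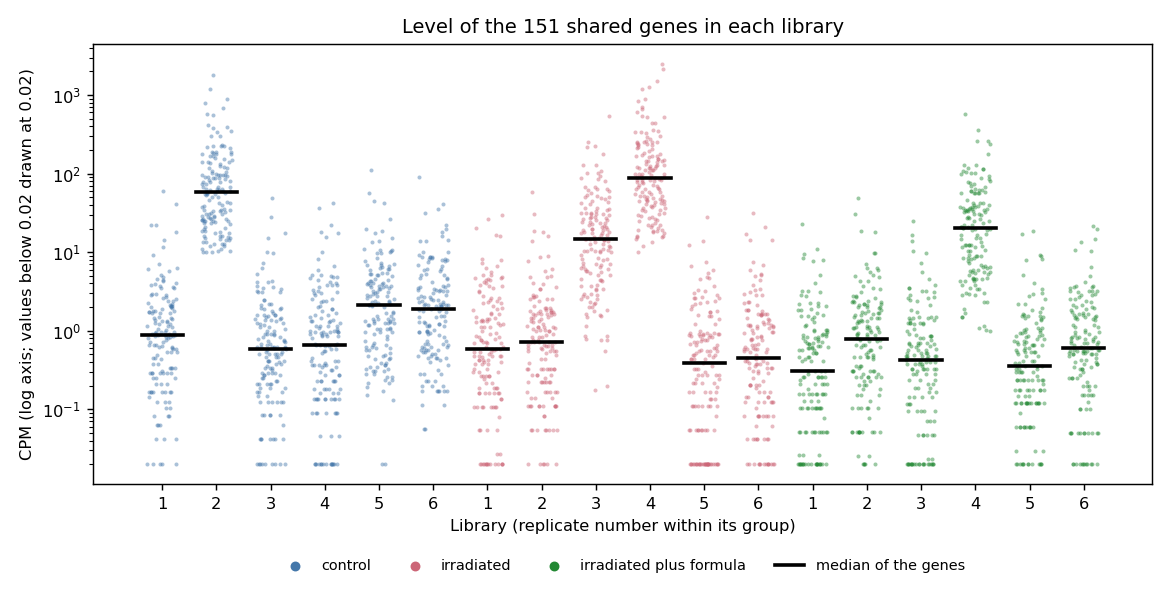
Level of each of the 151 shared genes (points, CPM on a log axis) in the 18 libraries, coloured by group, with the median of the genes as a black bar. Control 2 and irradiated 4, which chose the genes, stand highest, with medians of 58.4 and 88.1 CPM, then irradiated plus formula 4 and irradiated 3, with 20.3 and 14.6 CPM.

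Irradiated plus formula 4 and irradiated 3 were used by the rule only through the median of all libraries. Among the 15 libraries other than control 2, irradiated 1 and irradiated 4, these 2 were the highest for 147 of 151 members, where 9.22% of the 15734 genes reaching 1 CPM in those libraries had them highest. That this pair was examined was decided after its levels were seen. The rule itself was passed by 28 members in irradiated plus formula 4, which are 28 of the 32 genes that passed it there, and by 21 members in irradiated 3, of 37 genes. Both libraries passed for 18 members. In the other 13 libraries 0 members passed.

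The members kept similar proportions to each other in the 4 high libraries. Irradiated 4 exceeded control 2 for 143 of 151 members, with a median ratio of 1.53 and quartiles of 1.34 and 1.69, and the ratio lay within 2-fold of that median for 145. In irradiated plus formula 4 the members stood at a median of 0.22 times their level in irradiated 4 (quartiles 0.15 and 0.28), and 122 lay within 2-fold of that median. In irradiated 3 the median was 0.15 times (quartiles 0.097 and 0.22), and 109 lay within 2-fold. Of all the variation of the members' log2 levels across the 18 libraries, a single component held 92.2% and the next 2.08%. The rule selects for a contrast of this kind, so the share across 18 libraries is a description of the choice. It also set a lower bound on both levels behind the ratio of irradiated 4 to control 2. Counts within 2-fold were not made over all genes, so those given describe the members only.

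**Figure D2:**
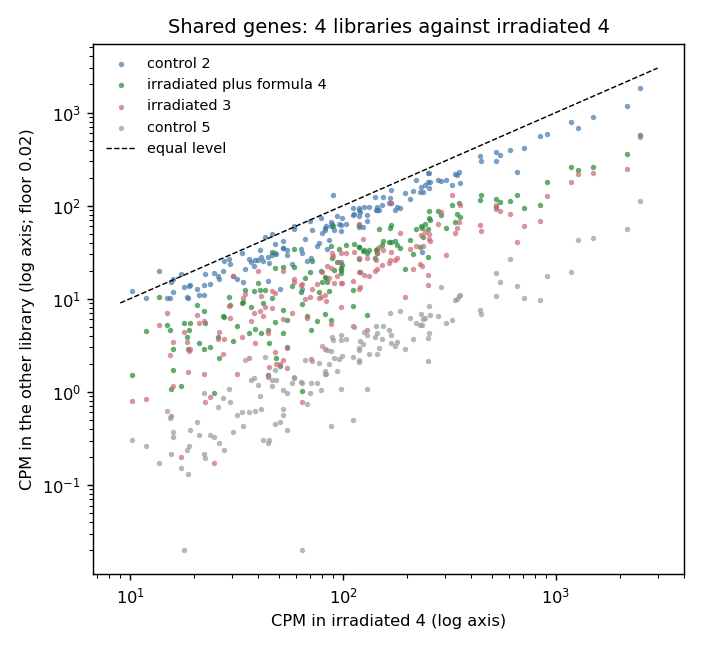
CPM of each shared gene in irradiated 4 (x axis, log) against its CPM in control 2, irradiated plus formula 4, irradiated 3 and control 5 (y axis, log), with the line of equal level. The 4 clouds run side by side, at median ratios of 0.22 for irradiated plus formula 4, 0.15 for irradiated 3 and 0.022 for control 5, while control 2 lies closest under the line.

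The same genes also varied together among the 13 low libraries, whose differences the rule did not use. There a single component held 61.1% of the variation of all 151 members, of which 113 reached 1 CPM in those libraries. For the 15412 genes reaching 1 CPM there the share was 29.4%, so the 2 shares rest on unlike filters. Control 5 was the highest of the 13 for 71 members and control 6 for 46. Of the 113 members that also reached 1 CPM there, 75 had these 2 libraries highest (66.4%), where 4.19% of the 15412 genes did. Control 5 lay above every irradiated and formula library among the 13 for 96 of the 113 (all genes 17.2%), and control 6 for 88 (all genes 13.2%). These libraries were singled out after their levels were seen, so the shares describe them and test nothing. In control 5 the members stood at a median of 0.022 times their level in irradiated 4, over the 149 members with a count there, and in control 6 also at 0.022 times. The ratio lay within 2-fold of its median for 126 of 149 members in control 5 and for 125 of 151 in control 6. Similar proportions were thus not particular to the high libraries, where irradiated plus formula 4 had 122 and irradiated 3 had 109. Depth limits the lower end: 52 members had 0 counts in at least 1 of the 13 libraries, and 60 stayed below 2 CPM in all 13.

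The strongest member lay on chromosome 6, reverse strand, from 132329269 to 133053426 (ENSRNOG00000034190), a gene of 29 exons as the table merges them. It reached 2485 CPM in irradiated 4, 1818 CPM in control 2, 572 CPM in irradiated plus formula 4 and 543 CPM in irradiated 3. In irradiated 1 it stood at 29.9 CPM, and in the 13 other libraries between 6.71 and 112 CPM, with a median of 41.7 CPM. Its exons overlap those of another member, so reads of the 2 genes cannot be fully separated, and it lies 0.65 Mb before the left-out window of chromosome 6.

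The member on chromosome 15, forward strand, from 50488149 to 50544680 (ENSRNOG00000010319) reached 2164 CPM in irradiated 4, 1178 CPM in control 2, 360 CPM in irradiated plus formula 4 and 249.9 CPM in irradiated 3. The other libraries were not at 0 for this gene: the 13 lay between 17.2 and 56.2 CPM and irradiated 1 at 26.6 CPM. A member on chromosome 13, reverse strand, from 106685413 to 106716235 (ENSRNOG00000034164) showed the opposite baseline. It reached 443 CPM in irradiated 4, 302 CPM in control 2, 129 CPM in irradiated plus formula 4 and 52.7 CPM in irradiated 3, while irradiated 1 had 0.054 CPM and the 13 others had a median of 0.11 CPM. Its highest values among the 13 were 9.99 CPM in control 6 and 6.86 CPM in control 5, and control 3, irradiated 5, irradiated 6 and irradiated plus formula 3 had 0 counts.

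Per kilobase of exon, which allows genes to be compared with each other, the highest member in irradiated 4 was the gene at 181295562 to 181300534 on chromosome 1, with 922 CPM per kb. The gene at 80493581 to 80497935 on the same chromosome (ENSRNOG00000020125) followed with 904 CPM per kb, and the gene at 169822952 to 169841658 on chromosome 4 with 894 CPM per kb. The median member stood at 35.5 CPM per kb and the lowest at 2.06 CPM per kb. The gene on chromosome 1 with 904 CPM per kb had 903 CPM in irradiated 4, 581 CPM in control 2, 179 CPM in irradiated plus formula 4 and 127 CPM in irradiated 3. Its low libraries again were ordered with control 6, at 18.2 CPM, and control 5, at 17.8 CPM, above the others, which lay between 0.12 and 5.18 CPM, irradiated 1 included.

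The next members kept the same order of libraries at lower levels. The gene at 49596193 to 49708692 on chromosome 13 reached 1180 CPM in irradiated 4 and 789 CPM in control 2, and its 261 CPM in irradiated plus formula 4 made it the third member by highest level outside the 3 libraries of the rule. The gene at 51474015 to 51548819 on chromosome 8 reached 841 and 562 CPM in the same order, with at most 9.70 CPM in the 13 low libraries. On chromosome 1, the gene at 207906374 to 207918512 reached 705 and 420 CPM, the gene at 176552046 to 176585361 reached 606 and 396 CPM, and the gene at 180987286 to 180993975 reached 440 and 340 CPM. These differ in their baseline: the median of the 13 low libraries was 0.39 CPM for the first, 10.1 CPM for the second and 0.33 CPM for the last. On chromosome 10, neighbours at 91239356 to 91242625 and at 91090280 to 91092775 reached 548 and 522 CPM in irradiated 4, with baselines of 0.33 and 6.97 CPM. On chromosome 14, the gene at 86255065 to 86342416 reached 525 CPM in irradiated 4 and 379 CPM in control 2. The gene at 13608902 to 13613933 on the same chromosome had 656 CPM in irradiated 4 and 229 CPM in control 2, and its highest low library was control 4, at 21.95 CPM.

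The 5 members with the highest levels made up 29.9% of the members' counts in irradiated 4, 29.1% in control 2, 27.3% in irradiated plus formula 4 and 29.7% in irradiated 3. In every other library their share was higher, from 32.4% in control 6 to 43.9% in control 3.

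A few members departed from the common proportions. The gene at 56963364 to 56965308 on chromosome 5 had the highest ratio of irradiated 4 to control 2, 7.33, 235 CPM against 32.1 CPM. It stood at 56.9 CPM in irradiated plus formula 4, 22.2 CPM in irradiated 3, 5.24 CPM in control 5 and 3.29 CPM in control 6, and at 0.21 CPM or less in the remaining 12 libraries. The gene at 70588116 to 70590626 on chromosome 16 came next, at 63.9 CPM against 12.8 CPM. Unlike nearly all others it was close to absent in the next 2 libraries, with 1.02 CPM in irradiated plus formula 4 and 0.77 CPM in irradiated 3. The gene at 72319155 to 72408156 on chromosome 13 had a ratio of 3.94. At the other end lay the genes at 46608912 to 46633793 on chromosome 5 and at 4619816 to 4625667 on chromosome 20, each with a ratio of 0.68, and the gene at 235909775 to 235965315 on chromosome 1, with 0.84. The member on chromosome 20 had 131 CPM in control 2, 89.4 CPM in irradiated 4, 60.6 CPM in irradiated plus formula 4 and 28.4 CPM in irradiated 3, and between 0.66 and 3.59 CPM in the 13 low libraries.

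The members were spread over 21 chromosomes. Chromosome 1 held 24 (15.9%), beside 12.3% of the 11834 other genes that reached 10 CPM anywhere, and chromosome 13 held 17 (11.3%), beside 3.08% of the others. Chromosome 3 held 3 members (1.99%), beside 7.34% of the others. In all, 62 members lay in 24 runs, in which successive members start within 500 kb of each other. The run at 80493581 to 80747150 on chromosome 1 held 3 members among 7 genes that reached 10 CPM anywhere, with a summed level of 1001 CPM in irradiated 4, 668 CPM in control 2, 203 CPM in irradiated plus formula 4 and 141 CPM in irradiated 3. On chromosome 10, at 91090280 to 91705282, 3 members summed to 1116 CPM in irradiated 4, 677 CPM in control 2, 216 CPM in irradiated plus formula 4 and 187 CPM in irradiated 3. No test of this grouping was made.

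In structure the members were somewhat shorter than the other genes, with a median exonic length of 2562 bases (quartiles 1507 and 3991) against 3142 bases (2049 and 4693), and a median of 7 merged exons against 10. Exons of 13 members overlap those of another annotated gene, and counting used no strand, so these counts are uncertain.

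The 3 left-out windows, on the chromosomes of the immunoglobulin loci, held many short genes. The chromosome 4 window held 119 genes with a median exonic length of 370 bases, 63 of them with 2 exons. The chromosome 6 window held 79 genes of a median 396 bases, 49 with 2 exons, and the chromosome 11 window 15 genes of a median 627 bases, 6 with 2 exons. Their summed level followed the members at the top: 5758 CPM in irradiated 4, 3816 CPM in control 2, 931 CPM in irradiated 3 and 717 CPM in irradiated plus formula 4. In the other 14 libraries it lay between 63.8 and 419 CPM. Here irradiated 3 stood above irradiated plus formula 4, while 126 of 151 members had the opposite order. The highest of the remaining libraries was irradiated 2, with 419 CPM, where the members' sum was 331 CPM, and not control 5, with 241 CPM, where the members summed to 754 CPM. The part of the cells that carry these transcripts in the members' levels was not tested.

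**Figure D3:**
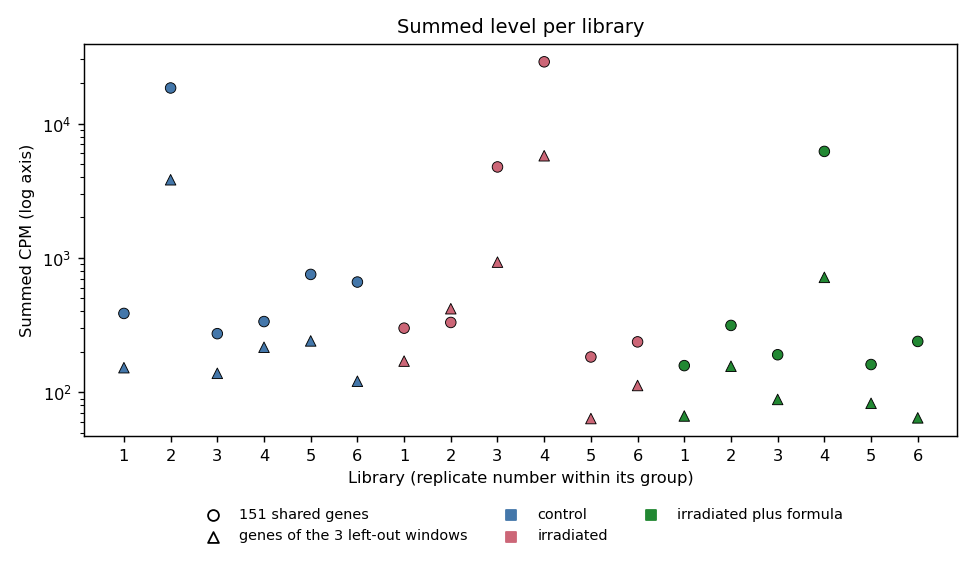
Summed CPM (log axis) of the 151 shared genes (circles) and of the genes of the 3 left-out windows (triangles) in each library, coloured by group. Both are highest in irradiated 4 and control 2, and in irradiated 2 the windows, at 419 CPM, lie above the shared genes, at 331 CPM.

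Members beside the windows behaved partly like the windows. Within 2 Mb of a window lay 13 members, 6 on chromosome 4, 6 on chromosome 6 and 1 on chromosome 11, and 8 of these were short, with 383 to 715 exonic bases in up to 3 exons. The 4 members for which irradiated plus formula 4 and irradiated 3 were not the highest of 15 libraries were all among these 8, a grouping seen after the values. Irradiated 2 was the highest of the 13 low libraries for 5 of the 8, and for 5 of the 138 members away from the windows. Control 5 or control 6 was the highest for 1 of the 8 and for 112 of the 138. The gene at 98233464 to 98234341 on chromosome 4, which lies 0.07 Mb before the window, had 30.6 CPM in irradiated 4, 17.3 CPM in control 2, 17.5 CPM in irradiated 3, 8.87 CPM in irradiated 2, but 3.54 CPM in irradiated plus formula 4. Without the 13 members the median of the remaining 138 was 90.3 CPM in irradiated 4, 60.8 CPM in control 2, 21.2 CPM in irradiated plus formula 4 and 14.9 CPM in irradiated 3, so the order of the libraries did not rest on them.

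The 57 genes that passed in control 2 and irradiated 1 but not in irradiated 4 were chosen on their levels there. Those levels are given as a description and test nothing. The median level of the 57 genes was 99.98 CPM in control 2 and 124 CPM in irradiated 1, while irradiated 4 stood at 2.85 CPM. In the other 15 libraries it lay between 0.20 and 1.09 CPM. Irradiated plus formula 4, at 0.47 CPM, and irradiated 3, at 0.55 CPM, lay inside that range.

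The group comparisons were made on the 15 libraries other than control 2, irradiated 1 and irradiated 4, 5 control, 4 irradiated and 6 irradiated plus formula. The first asks what irradiation changed, the second what the formula changed after irradiation, and the third how treated irradiated rats differed from control. Of the 151 members 146 passed the filter on low counts of edgeR. In edgeR's quasi-likelihood test 0 members were called at an adjusted p below 0.05 in any of the 3 comparisons, where the share of all 16838 genes called was 0% for irradiated against control, 0% for irradiated plus formula against irradiated and 0.0416% for irradiated plus formula against control. At an unadjusted p below 0.05 there were 2, 1 and 0 members, beside 5.27%, 2.44% and 10.7% of all genes tested. Of these, 0, 1 and 0 members had the lower level in the group named first, beside 2.22%, 1.28% and 4.56% of all genes. By limma-voom with sample quality weights 0 members were called as well, where 0%, 0% and 2.96% of all genes were, and 1, 1 and 3 members had an unadjusted p below 0.05, beside 10.3%, 4.35% and 22.7% of all genes. DESeq2 gave no adjusted p for 116, 116 and 121 of the 146 members, so its count covers only the other 30, 30 and 25. Among these it called 0, where 0.0967%, 0.0302% and 1.63% of all genes with an adjusted p were called. An unadjusted DESeq2 p below 0.05 was counted whether or not an adjusted p was given. It was found for 1, 1 and 3 members, beside 6.98%, 3.58% and 12.7% of all genes. The lowest adjusted p of a member in edgeR was 0.829, 0.9999 and 0.481.

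By edgeR the member with the lowest p between irradiated and control was the gene at 98233464 to 98234341 on chromosome 4, with a log2 fold change of 4.05 (SE 1.33, adjusted p = 0.829). It also had the lowest p among members lower with the formula than in irradiated libraries, at -2.88 (SE 1.18, edgeR adjusted p = 0.9999). Irradiated 3, at 17.5 CPM, and irradiated 2, at 8.87 CPM, were its high libraries among the 15, while irradiated 5 and irradiated 6 had 0.055 and 0.83 CPM. The gene at 46638317 to 46977877 on chromosome 5 led the members higher with the formula than in control, at 2.41 (SE 1.16, edgeR adjusted p = 0.481), from 12.3 CPM in irradiated plus formula 4 and 6.30 CPM in irradiated plus formula 2, where the other 4 formula libraries had 0.21 to 0.57 CPM and the 5 controls 0.14 to 1.31 CPM. Among members lower than control in either irradiated group the gene at 132389370 to 132393397 on chromosome 6 came first, at -0.51 (SE 1.10, edgeR adjusted p = 0.926) without and -1.02 (SE 0.99, edgeR adjusted p = 0.743) with the formula. The gene at 79871827 to 79880529 on chromosome 15 led those higher with the formula than in irradiated libraries, at 1.51 (SE 1.32, edgeR adjusted p = 0.9999), from 5.54 CPM in irradiated plus formula 4 and 0.24 CPM or less in the other formula libraries.

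The sign of the members' fitted values changed with irradiated 3 and irradiated plus formula 4. Between irradiated and control the median member had a log2 fold change of 1.49, with 143 higher and 3 lower, while the median over all genes tested was 0.03 and 46.2% of them were lower. Without irradiated 3 it was -0.85, with 18 higher and 128 lower. For irradiated plus formula against control the median was 1.31, with 143 higher and 3 lower (48.3% of all genes lower), and without irradiated plus formula 4 it was -1.06, with 10 higher and 127 lower. For irradiated plus formula against irradiated the median was -0.14, with 55 higher and 91 lower (51.5% of all genes lower), and it became 2.13 without irradiated 3 and -2.46 without irradiated plus formula 4. That median was close to 0, and it also changed sign when any other formula library was left out, to between 0.04 and 0.09, and with irradiated 1 put back, to 0.06. The median standard error of a member was 1.18 to 1.28 on the log2 scale, against 0.28 to 0.31 for all genes. The comparisons share libraries with each other.

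**Figure D4:**
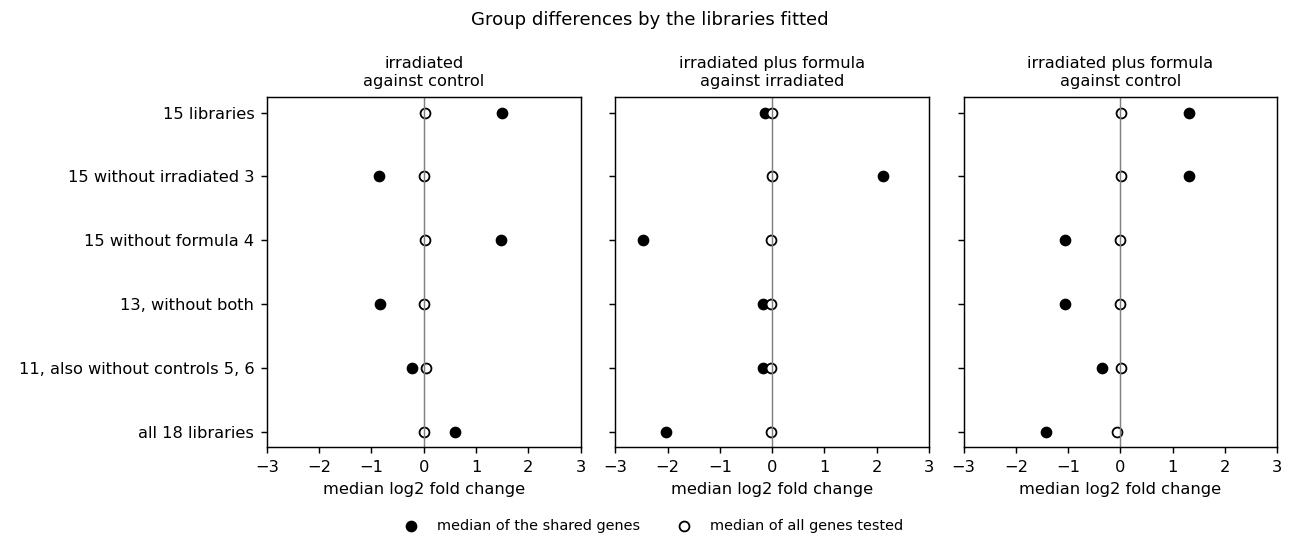
Median log2 fold change of the shared genes (filled) and of all genes tested (open) in each of the 3 comparisons, for 6 choices of libraries. The filled points change side with irradiated 3 and irradiated plus formula 4, from 1.49 to -0.85 and from 1.31 to -1.06, while the open points stay near 0.

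With both of these libraries left out as well, 13 remained, and 137 members passed the filter. The 2 libraries were left out because the members were high in them, while control 5 and control 6, the next highest, stayed in the control group. This choice sets the direction of what follows, so the counts are given as a description of the 13 libraries and not as a difference between the groups. The median member was then lower in both irradiated groups than in control. For irradiated plus formula against control the median log2 fold change was -1.06 (quartiles -1.50 and -0.69), with 128 members lower, 93.4%, beside 51.3% of all genes. At an unadjusted p below 0.05 a lower level was found for 58 members (42.3% of those tested), against 5.06% of all genes, and 0 passed the adjusted threshold in edgeR, where 0.0415% of all genes were called. For irradiated against control the median was -0.83, with 120 of 137 lower (all genes 48.9%), 35 of them at an unadjusted p below 0.05 (all genes 3.17%), and 0 were called. Between irradiated plus formula and irradiated the median was -0.17, with 85 of 137 lower (all genes 52.4%), 5 of them at an unadjusted p below 0.05 (all genes 1.37%). The lowest edgeR adjusted p of a member was that of the gene at 207442877 to 207481634 on chromosome 1, with a log2 fold change of -1.42 (SE 0.34, adjusted p = 0.212) for irradiated plus formula against control. It lay between 1.33 and 3.12 CPM in the 5 controls and between 0.55 and 0.98 CPM in the 5 formula libraries, so these did not overlap. Of the 113 members reaching 1 CPM in the 13 libraries, 10 were lower with the formula than in control without overlap (8.85%), beside 2.54% of all 15412 genes reaching 1 CPM. Counted the same way, 13 members were lower in irradiated than in control libraries (11.5%, all genes 3.02%). Lower with the formula than in irradiated libraries were 4 (3.54%, all genes 0.74%). These counts compared 5 formula, 3 irradiated and 5 control libraries. In the same order of comparisons, 0, 0 and 1 of all 151 members were higher without overlap. Of the 15412 genes reaching 1 CPM, 132, 140 and 109 were.

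The lower fitted values against control in the 13 libraries rested in large part on control 5 and control 6. Without them, in 11 libraries, the median member was -0.36 for irradiated plus formula against control and -0.23 for irradiated against control, and it was -0.17 for irradiated plus formula against irradiated. Of 126 members tested, 6 had an unadjusted p below 0.05 in each comparison, beside 6.86%, 5.65% and 3.51% of all genes in that order, and 0 were called by edgeR. In the 13 libraries the median member lay between 0.58 and 2.12 CPM in control, 0.38 and 0.72 CPM in irradiated and 0.31 and 0.79 CPM in irradiated plus formula libraries, and apart from control 5 and control 6 these ranges overlapped. Among members, the gene at 52474168 to 52498603 on chromosome 1 had the lowest p between irradiated and control in the 13 libraries. It stood between 2.32 and 6.97 CPM in control and between 0.72 and 1.45 CPM in irradiated libraries. Its log2 fold change was -2.06 (SE 0.53, edgeR adjusted p = 0.696).

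At the threshold of the rule the members ran on without a gap. Over all members the lower of the levels in control 2 and irradiated 4 was a median of 61.1 times the median library. The member just inside lay at 30753344 to 30814685 on chromosome 10, at 32.1 times, followed by the genes at 4520713 to 4539705 on chromosome 20 and at 45303852 to 45315022 on chromosome 8, both at 32.5 times. Just outside were genes at 57550147 to 57556258 on chromosome 8, at 31.7 times, at 15400845 to 15417044 on chromosome 17, at 31.5 times, and at 72111264 to 72212265 on chromosome X, at 31.4 times. For 34 members the threshold was more than 0.8 times their own ratio, and 31 genes that met the other conditions lay from 0.8 times the threshold up to it.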

How the data were processed

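The deposited values are raw counts for each gene. Per the file headers, the authors counted paired-end reads by featureCounts 2.1.1 against Ensembl release 110 (mRatBN7.2). The submitters' processing notes also list FastQC, fastp, STAR and SAMtools. The command sets neither strand nor counting of read pairs, and 66.9% to 74.6% of counts from 1 to 39 were even, so both reads of a pair were largely counted and counting error is larger than the counts imply. Columns were mapped by the library names in the labels, and 0 per-sample columns were unused. Of the Ensembl IDs 0 matched the RefSeq gene table (GRCr8), so the gene lists, promoter motifs and sequences planned for the members are not used here. The rule for named members was kept for the parts that need no symbol: the 15 highest by geometric mean of control 2 and irradiated 4, the 3 on each side of the threshold, the 3 highest and 3 lowest ratios of irradiated 4 to control 2, the 3 highest levels elsewhere, and the lowest p in each direction.

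Counts were tested with edgeR 4.0.16 in R 4.3.3 (filterByExpr, TMM, quasi-likelihood test, no covariate) in a single model of 15 libraries, with Benjamini-Hochberg adjustment over all genes tested. Control 2, irradiated 1 and irradiated 4 were left out because the rule used them. Standard errors are the absolute log2 fold change over the square root of F. Alternatives used DESeq2 1.42.0, limma 3.58.1, other scalings and filters, and other choices of libraries. Counts were also simulated for irradiated against control (16838 genes). There the fit called 20.9% of genes changed 2-fold, 82.1% of those changed 4-fold and 100% of those changed 8-fold, with 3 false calls. These shares do not carry over to the members, whose median standard error was 1.18 to 1.28 on the log2 scale. For all genes it was 0.28 to 0.31. Recovery at the members' own spread was not tested, so 0 members called does not exclude differences of 4-fold or 8-fold in them. Components were computed on log2(CPM + 0.1), centred per gene. All 153 pairs of libraries differed by more than counting error (lowest median chi-square 6.36). The members and lists were chosen with earlier results of these data known.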

Additional observations from a re-analysis of the deposited data

Results flagged for a closer look

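In each group of 6 libraries the median member level set a library apart from the others by Dixon's test: control 2 at 58.4 CPM, above 2.12 CPM in the next library, irradiated 4 at 88.1 CPM, above 14.6 CPM, and irradiated plus formula 4 at 20.3 CPM, above 0.79 CPM. The summed level of the 3 left-out windows set apart the same libraries: control 2 at 3816 CPM, above 241 CPM, irradiated 4 at 5758 CPM, above 931 CPM, and irradiated plus formula 4 at 717 CPM, above 156 CPM. Chance flags about 1 in 20 groups, but that rate does not apply to control 2 and irradiated 4. Their levels chose the members, and 42 genes of the windows passed the same rule in them, so these outcomes repeat the choice and are no test. Irradiated plus formula 4 entered the rule only through the median of the libraries. The test used CPM without a log, and whether the rate holds for that library was not examined.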

How the results depend on the processing

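In the 3 comparisons 0 members were called in any of the 28 alternatives, which included all 18 libraries, other scalings and filters, DESeq2, limma-voom and each of the 15 libraries left out in turn, where the number of members called was 0 throughout (0 to 0). Over the same fits the number of all genes called ran from 0 to 16 for irradiated against control, 0 to 5 for irradiated plus formula against irradiated and 0 to 499 for irradiated plus formula against control. DESeq2 gave an adjusted p to only 30, 30 and 25 of 146 members. The fit of all 18 libraries gave a median member of 0.59, -2.04 and -1.42 on the log2 scale for irradiated against control, irradiated plus formula against irradiated and irradiated plus formula against control, against 1.49, -0.14 and 1.31 in 15 libraries. It includes control 2 and irradiated 4, whose levels chose the members, so its values are set by the rule. With a replicate block 0 members were called, and the medians were 0.52, -0.99 and -0.49. Of 12 same-numbered pairs of libraries 2 had a correlation of their deviations over 0.1, in a range from -0.55 to 0.39, and 2 of 15 libraries had their highest correlation with a library of their own number, so the numbers were not used as pairs. By limma-voom the medians were 0.56, -0.88 and -0.29. For irradiated plus formula against control the median thus changed sign with the block and with limma-voom. The number of members was 254 at 16 times the median and 71 at 64 times, by construction of the threshold, and it was 200 with a floor of 1 CPM, 165 with the median of 15 libraries, 129 without the mitochondrial chromosome and 109 with TMM-scaled CPM, all of these last 109 among the 151. Of the alternatives, the fits of 13 and of 11 libraries, and scaling the tests without mitochondrial genes, were added after seeing the data. In the low libraries depth limits the members: 1 count in the shallowest library is 0.030 CPM.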

Other observations

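Control 2 and irradiated 4, but not the other libraries with high members, also had many genes at low levels. Of 9001 genes with a median of at least 10 CPM, 927 lay below 0.25 of that median in irradiated 4 and 416 in control 2, and 287 did so in both. Irradiated 1, in which the members were low, had 183 genes below 0.25 of the median, and the other 15 libraries had 5 to 73. These 287 genes had a median level of 3.94 CPM in irradiated 4 and 5.82 CPM in control 2, which follows from how they were chosen. Their median level was 13.9 CPM in irradiated 1 and 43.1 to 71.5 CPM in the other 15 libraries. Irradiated plus formula 4 and irradiated 3, in which the members were also high, stood at 62.4 and 64.2 CPM for these genes, inside the range of the libraries with low members, and had 6 and 18 genes below 0.25 of the median.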
